A study of Malus domestica with 5 samples.

Results

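The moderately abundant small RNA repeats of apple (Malus domestica) buds are 10460 rows of the deposited count table, out of 429395 repeats and 430043 features in all. They were chosen by their level alone: a repeat belongs to the band when its raw count, averaged over the 5 libraries, is at least 1000 and under 5000. No difference between the phases was used as a criterion. The average does take in 3 reproductive and 2 juvenile libraries, and it gives more weight to libraries with more counts. A repeat can enter the band through the counts of a single phase, so the choice is not independent of the comparison. Their mean counts ran from 1000 to 4988 with a median of 1396, and they make up 2.44% of all repeats. The table knows a repeat only by a number, with no sequence, element name or place in the genome, so at most 2 numbers are named below in each direction, and the other repeats are described by their values and by where they fall in the numbering.

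Plant genomes hold many transposons and other repeated sequences, and most small RNAs of a shoot usually come from them. In flowering plants such repeats are commonly copied by RNA polymerase IV and RDR2 into double-stranded RNA, which DICER-LIKE 3 cuts into siRNAs that ARGONAUTE 4 uses to guide DNA methylation at matching loci, a process called RNA-directed DNA methylation. Other small RNAs from repeats, of other lengths, act after transcription by cleaving transcripts. The table does not give lengths, so these classes cannot be told apart here.

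The series set buds of the juvenile phase (2 libraries) against buds of the reproductive phase (3 libraries), to follow small RNAs through the transition from the non-flowering to the flowering phase. The labels give no cultivar, age or treatment for either group, and nothing that both groups carry in common. For the juvenile libraries the tissue is a juvenile-like sucker taken at the base of the stem, and for the reproductive ones the buds themselves, so phase and place on the tree cannot be told apart. Each value is a whole-number count of reads per feature from RNA of 19 to 24 nt purified on a gel. A small RNA table holds no mRNA markers of buds or suckers, and the phase-related pair of miRNAs was the check of the labels: miR172 over miR156 stood at 0.937 and 0.970 in the juvenile against 4.55, 3.69 and 4.05 in the reproductive libraries.

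The sums of counts ran from 85087230 to 97283456 in the juvenile and from 122455352 to 140173167 in the reproductive libraries. They are not read numbers, because a read that matches several features can be counted under each of them. Within the band, 1178 repeats had the same counts in all 5 libraries as another repeat of the band, in groups of up to 15, and the 10460 repeats carry 9804 distinct sets of counts. Nothing in the labels ties the replicates to separate trees, and the p-values then measure only how far these libraries spread, which may be technical.

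A typical repeat of the band had a higher raw count in each reproductive library, and the scaling of the libraries decided whether this counted as a rise. The median raw count over the 10460 repeats was 1028 and 839 in juvenile libraries 1 and 2, and 1814, 1604 and 1639 in reproductive libraries 1, 2 and 3. After TMM scaling, which sets the trimmed mean change over all features to 0, the median normalised count was 1748 and 1900 in the juvenile against 1090, 1088 and 1045 in the reproductive libraries. The raw medians are thus higher and the TMM-normalised medians lower in every reproductive library than in either juvenile one. TMM put the effective size of the reproductive libraries 3.08-fold above that of the juvenile ones, where the sums of counts put it 1.41-fold above.

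Under TMM most of the band was lower in reproductive buds. Of the 10460 repeats, all of which passed the count minimum, 8326 were called lower (79.6%) and 775 higher (7.41%) in edgeR's quasi-likelihood test at an adjusted p of 0.05, and 1359 were not called. Over all 282619 features tested, 24.3% were called lower and 21.1% higher. Repeats of mean count 5000 or more had 98.8% lower and 0.399% higher, with a median log2 fold change of -1.49. Those of mean count 100 to under 1000 had 38.7% lower and 22.4% higher, with a median of -0.16. The band thus lay between the levels on either side of it. The groups of libraries were apart, with no overlap in TMM-normalised counts, in 9831 repeats of the band (94.0%), against 69.1% of all features tested. The median log2 fold change of the band was -0.62 (quartiles -1.04 and -0.30), beside 0.08 for all features, and the median standard error of 1 repeat was 0.09. In bulk samples, fewer cells of a type and less small RNA per cell cannot be told apart.

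With library sizes taken as the sums of counts the picture turned over. Then 7342 repeats (70.2%) were called higher and 1769 (16.9%) lower in edgeR, against 83.3% and 2.46% of all features, and the median log2 fold change was 0.50. Scaling on the miRNA features alone lay between, with 1799 higher (17.2%, against 43.4% of all features) and 4471 lower (42.7%, against 9.65%) and a median of -0.18. A change of library sizes shifts every feature by nearly the same amount, so it leaves the distance between the band and all features almost as it was. The median of the band was -0.62 where that of all features tested, the band included, was 0.08 under TMM, and 0.50 where it was 1.19 under the sums. No test was made of that distance.

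**Figure D1:**
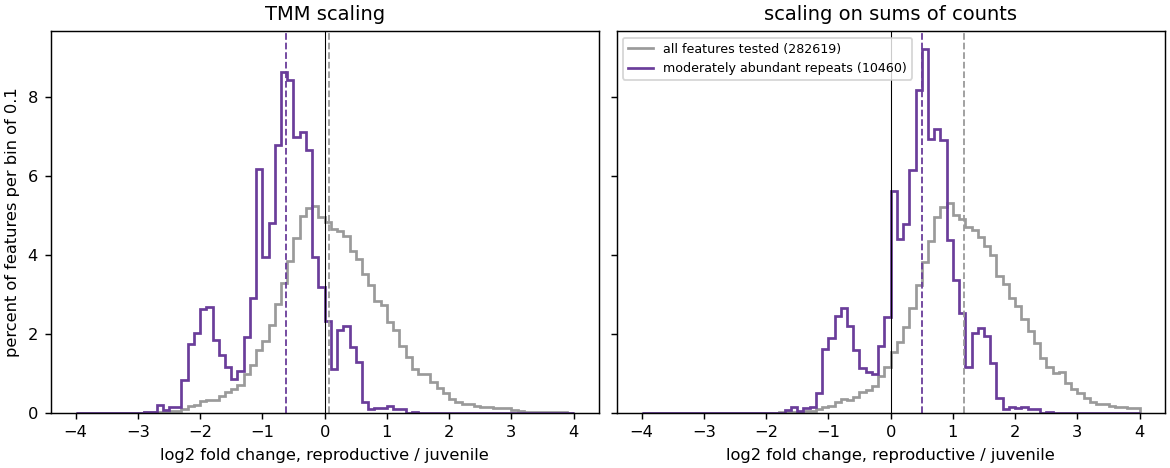
Share of features (percent per bin of 0.1, y axis) by log2 fold change of reproductive over juvenile libraries (x axis), for the 10460 moderately abundant repeats (purple) and all 282619 features tested (grey), under TMM and under the sums of counts. Dashed lines are medians: the band moves from -0.62 to 0.50 and all features from 0.08 to 1.19, and the change of scaling shifts both by nearly the same amount. All features include the band.

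Calls made under each of 4 scalings were counted as well (TMM, DESeq2, TMM over the miRNA features, sums of counts). Called lower under all 4 were 1769 repeats (16.9%, against 2.46% of all features), and called higher under all 4 were 665 (6.36%, against 12.9%). The remaining 8026 repeats were called in no single direction throughout. The sums alone called the same 1769 lower, and DESeq2 alone called the same 665 higher. A single scaling thus set each count, and the 4 scalings are not separate support. As a share of all counts, with each distinct set of counts taken once, the band held 12.5% and 11.9% in the juvenile against 15.4%, 15.2% and 15.4% in the reproductive libraries. The means were 12.2% ± 0.406 (SD, n = 2) and 15.3% ± 0.111 (SD, n = 3), a gap larger than the spread within either group (exact permutation test, two-sided, p = 0.1; 10 splits of 5 libraries allow no smaller p). Repeats of mean count 5000 or more went, on the same measure, from 49.3% and 51.9% (juvenile) to 32.9%, 32.1% and 30.2% (reproductive). Those of mean count under 1000 went from 21.8% and 19.5% to 37.1%, 37.8% and 39.6%, a larger gain than that of the band. The band therefore took a larger share of the reproductive counts while most of its repeats were called lower under TMM.

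Log2 fold changes within the band ran from -2.81 to 1.42 under TMM, with a standard deviation of 0.67 over the repeats. Of the 10460 repeats, 538 lay below -2, 2374 between -2 and -1, 3411 between -1 and -0.5 and 2917 between -0.5 and 0. Above 0 there were 985 up to 0.5, 197 between 0.5 and 1 and 38 at 1 or more. Level within the band made little difference to the median, which was -0.59 for mean counts of 1000 to 1500, -0.65 for 1500 to 2500 and -0.60 for 2500 to 5000. The share called higher in edgeR went from 10.6% through 4.20% to 0.176% over the same 3 classes. At the edges of the band the medians were -0.40 for the 990 repeats with mean counts of 950 to 1000 and -0.46 for the 920 with 1000 to 1050, and -0.48 for the 79 repeats of 4750 to 5000 and -0.44 for the 46 of 5000 to 5250.

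Repeats with neighbouring numbers had like changes. The band is spread unevenly over the numbering: of the 431 blocks of 1000 numbers that the table's repeats span, 288 hold any repeat of the band, and 111 blocks hold 20 or more. Series of such blocks, broken where more than 1 block in between has fewer, are called stretches here and are given by their first and last block. A block carries the number that its repeats share before their last 3 digits, so that block 1135 holds repeat_1135394. This grouping was made after the values were seen, and its 22 stretches hold 9720 of the 10460 repeats (92.9%). Whether neighbouring numbers are neighbours in the genome or copies of the same element is not given in the sources used here.

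**Figure D2:**
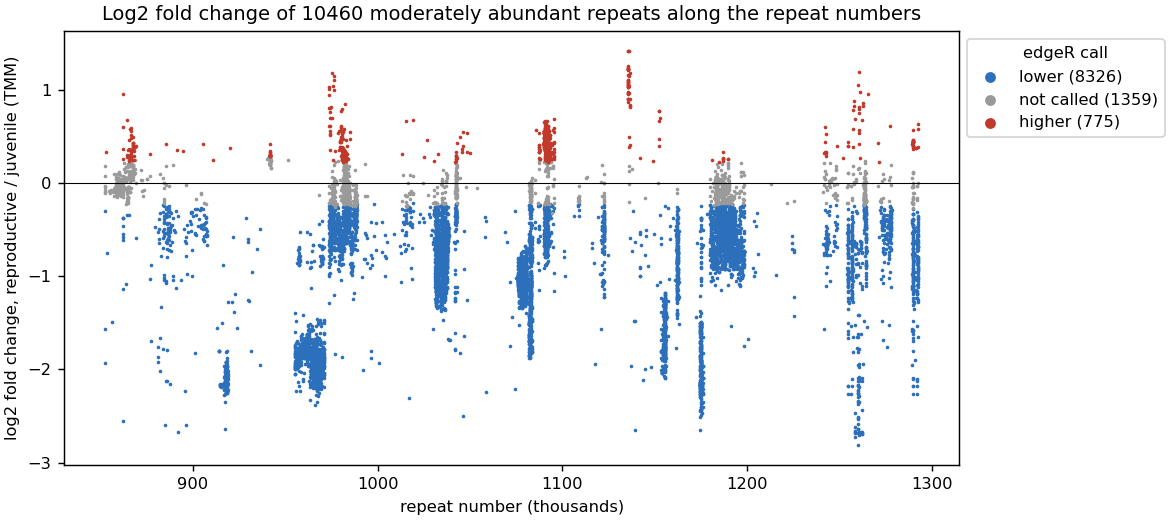
Log2 fold change of reproductive over juvenile libraries under TMM (y axis) against the repeat number divided by 1000 (x axis) for each of the 10460 repeats, coloured by edgeR call (8326 lower, 1359 not called, 775 higher). Repeats gather in stretches, some of them near -2 (917 to 918, 955 to 970) and 1 of them near 1 (1135).

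Many of the deep losses lay in the 4 stretches with a median log2 fold change below -1.5. Blocks 917 to 918, 955 to 970, 1154 to 1155 and 1174 to 1175 together held 1470 repeats of the band, of which 1469 were called lower under TMM in edgeR and 1344 under all 4 scalings. That is 76.0% of the 1769 repeats called lower throughout, and these stretches also hold 1262 of the 1562 repeats with a log2 fold change below -1.5 (80.8%). The 4 stretches were picked by their median after the values were seen, so high shares follow in part from the choice. The largest loss of a single repeat lay elsewhere, in block 1260, whose 58 repeats had a median of -2.10 within the stretch 1254 to 1264, at -0.63 as a whole.

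In blocks 917 to 918 the median TMM-normalised count of 131 repeats was 2655 and 3438 in the juvenile against 763, 711 and 630 in the reproductive libraries. All 131 were called lower in edgeR, with log2 fold changes from -2.64 to -1.80 (median -2.12), and all 131 were called lower under the sums too. Every reproductive library lay far below both juvenile ones, and juvenile 2 lay above juvenile 1.

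Blocks 955 to 970 held 796 repeats, with median normalised counts of 3080 and 3928 against 958, 947 and 879. Here 795 were called lower in edgeR, at a median log2 fold change of -1.89, and 721 under all 4 scalings. In blocks 1174 to 1175, whose 276 repeats had a median raw mean count of 2710, the medians were 5360 and 5918 against 1591, 1607 and 1414 normalised counts. All 276 were called lower under TMM and 251 under all 4 scalings. Blocks 1154 to 1155 gave 2402 and 3030 against 890, 838 and 796, with all 267 repeats called lower under TMM and 241 under all 4. In the 4 stretches the groups of libraries did not overlap for any repeat, where 94.0% of the band and 69.1% of all features tested had no overlap.

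The juvenile libraries also lay apart in these stretches, though not only there. Juvenile 1 over juvenile 2 had a median of 0.772 in blocks 917 to 918, 0.786 in 955 to 970, 0.814 in 1154 to 1155 and 0.868 in 1174 to 1175 after TMM scaling. It was 0.903 over all repeats called lower in the band, 0.967 over those not called and 1.07 over those called higher. Some blocks with smaller changes had low values too, such as block 1037 (0.842, median log2 fold change -0.72) and block 1185 (0.856, -0.56). The part of the gap between the juvenile libraries in the result was not tested.

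**Figure D3:**
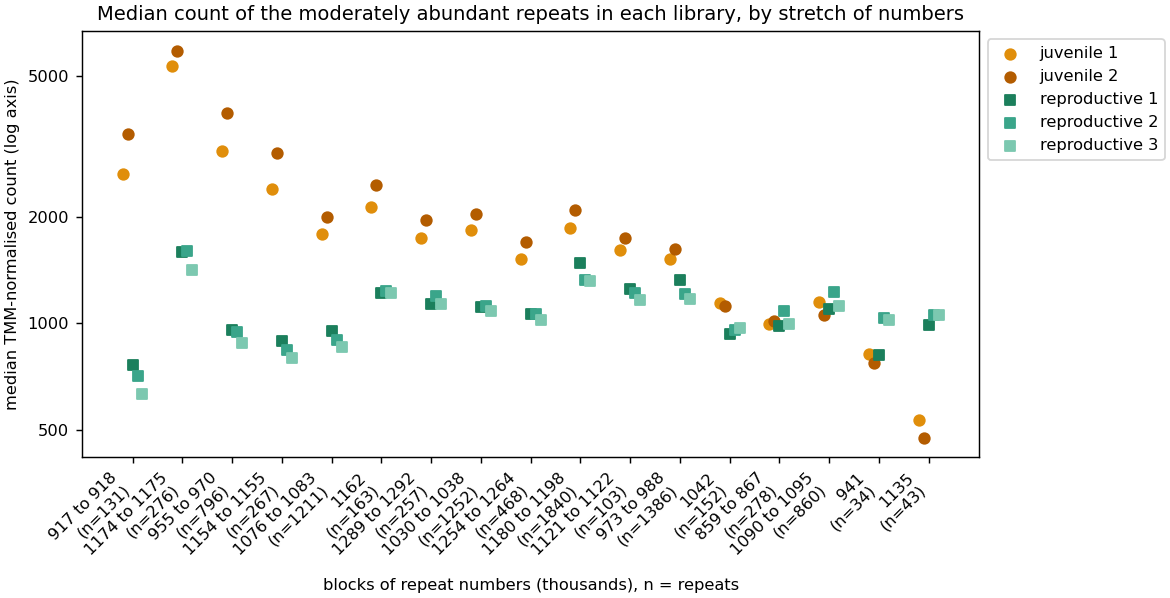
Median TMM-normalised count (y axis, log scale) of the band's repeats in each library, for the stretches of numbers with 100 or more repeats or a median log2 fold change above 0 (x axis, first and last block, with the number of repeats), circles for the 2 juvenile and squares for the 3 reproductive libraries. The juvenile points lie above the reproductive ones from 917 to 918 (2655 and 3438 against 630 to 763) to 973 to 988, and below them in block 1135 (532 and 473 against 989 to 1056).

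Some larger stretches had smaller differences, whose direction hung on the scaling. Blocks 1076 to 1083 held 1211 repeats with median normalised counts of 1795 and 1998 against 953, 898 and 859. Of these, 1169 were called lower under TMM in edgeR (median log2 fold change -1.04), while under the sums 325 were called higher and 176 lower (median 0.08). Blocks 1030 to 1038 held 1252, with 1218 called lower under TMM at a median of -0.76 and 922 higher under the sums at 0.37. The largest stretch, blocks 1180 to 1198 with 1840 repeats, had 1604 called lower under TMM (median -0.54) and 1802 higher under the sums (0.58). Each of these stretches had reproductive medians below both juvenile medians after TMM scaling.

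Runs of close numbers were followed more finely. A run is a series of repeats of the band whose successive numbers differ by at most 5, and 1000 runs held 3 or more repeats, 7253 in all, the longest with 122. In 580 runs every repeat was called lower under TMM in edgeR, and in 7 every repeat was called higher, which leaves 413 runs with uncalled or mixed repeats. The 7 became 4 without juvenile replicate 2 and 12 without reproductive replicate 1. Since 79.6% of the whole band was called lower, short runs called lower throughout are common at that background. Under the sums, 568 runs were higher throughout and 123 lower.

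The spread of log2 fold changes within these runs had a standard deviation of 0.30, against 0.67 over the band. With identical rows of a run taken once it was 0.31, and 789 of the 1000 runs had no counts in common between any of their repeats. For successive repeats whose numbers differ by 1 and whose counts are not identical, the median difference in log2 fold change was 0.16 (3760 pairs, of which 328 with identical counts were left out). It was 0.19 for numbers 2 to 5 apart, 0.18 for 6 to 20 and for 21 to 100 apart, and 0.29 beyond 100. Differences were thus smaller up to 100 numbers apart than beyond, and reads shared between repeats that are alike but not identical in counts could not be separated.

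The longest run called lower throughout opened with repeat_1076476 and held 91 repeats with 88 distinct sets of counts. This repeat had 971 and 800 raw counts in the juvenile against 1425, 1195 and 1237 in the reproductive libraries. After TMM scaling these became 1651 and 1812 against 857, 810 and 788, so the groups separate, in the direction opposite to the raw counts. The normalised mean fell from 1731 ± 114 (SD, n = 2) to 818 ± 34.9 (SD, n = 3), a log2 fold change of -1.08 with SE 0.09 and an edgeR adjusted p of 6.6e-08. Scaled on the sums it stood at 0.04 (edgeR adjusted p = 0.61). All 91 repeats of the run had log2 fold changes between -1.34 and -0.92.

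The largest loss in the band was that of repeat_1260178, which belongs to no run. Its raw counts were 2146 and 2060 in the juvenile against 1052, 926 and 804 in the reproductive libraries, which puts even the raw counts of the groups apart. With a mean count of 1398, the repeat entered the band through its juvenile counts, so the choice itself bears on this fall. It fell 7.02-fold, from 4157 ± 719 to 591 ± 68.0 normalised counts (SD, n = 2 and n = 3), a log2 fold change of -2.81 with SE 0.12 and an edgeR adjusted p of 4.9e-10. The fall held with DESeq2 (-2.83), with TMM over the miRNA features (-2.38) and under the sums (-1.68), each past the threshold.

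Rows against the general direction of the TMM comparison were the 775 called higher, with 711 distinct sets of counts in 79 blocks. Without juvenile replicate 2, 494 repeats of the band were called higher. The median normalised count of the 775 was 867 and 806 in the juvenile against 1081, 1197 and 1126 in the reproductive libraries. Their median raw counts were 510 and 356 against 1799, 1766 and 1767, so many entered the band through the reproductive libraries. The changes were small: the median log2 fold change was 0.41 (1.33-fold), 38 exceeded 1, and the highest was 1.42. Only 2 of the 775 had a mean count of 2500 or more. By place, 435 of them (56.1%) lay in blocks 1090 to 1095, 102 in 973 to 988, 39 in block 1135, 44 in 859 to 867 and 23 in 1289 to 1292. The other 132 were spread over 52 blocks, with a median of 0.38.

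Block 1135 was the one stretch whose median log2 fold change exceeded 1 under TMM. Of its 43 repeats, 39 were called higher under TMM and the same number under all 4 scalings, and none was called lower. Of all features tested, 21.1% were called higher under TMM and 12.9% under all 4 scalings. The median normalised count was 532 and 473 in the juvenile against 989, 1055 and 1056 in the reproductive libraries, and the median log2 fold change was 1.05. Raw medians were 313 and 209 against 1645, 1556 and 1657. The groups did not overlap in normalised counts in 42 of the 43 repeats, near the 94.0% of the whole band, where all features tested had 69.1%. At a median mean count of 1072, these repeats mostly entered the band through their reproductive counts. Juvenile 1 over juvenile 2 had a median of 1.12 here, the opposite order of the 4 stretches with medians below -1.5.

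The largest rise of the band was that of repeat_1135394 in the same block. It had 236 and 146 raw counts in the juvenile against 1533, 1480 and 1613 in the reproductive libraries, so each reproductive library held several times more than either juvenile one. It rose 2.67-fold, from 366 ± 49.9 to 984 ± 55.7 normalised counts (SD, n = 2 and n = 3), a log2 fold change of 1.42 with SE 0.11 and an edgeR adjusted p of 3.6e-08. With a mean count of 1002, the repeat entered the band only through its reproductive counts, so the choice itself bears on this rise. Its log2 fold change was 1.40 with DESeq2, 1.87 with TMM over the miRNA features and 2.53 under the sums.

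Also in block 1135, repeat_1135563 opened the longest run called higher throughout, of 11 repeats with 8 distinct sets of counts. Its raw counts were 313 and 209 in the juvenile against 1641, 1556 and 1637 in the reproductive libraries, again with no overlap. This repeat, with a mean count of 1071, likewise entered the band only through its reproductive counts. It rose 2.04-fold, from 503 ± 41.6 to 1028 ± 36.7 normalised counts (SD, n = 2 and n = 3), a log2 fold change of 1.03 with SE 0.10 and an edgeR adjusted p of 4.0e-07. The 11 repeats of the run had log2 fold changes from 0.86 to 1.11.

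Blocks 1090 to 1095 held repeats of both directions side by side. Of 860 repeats of the band there, 435 were called higher, 358 lower and 67 not at all under TMM in edgeR. Log2 fold changes fell into separate groups, with 472 above 0.1, 380 below -0.1 and 8 between. The repeats called higher had median normalised counts of 870 and 806 in the juvenile against 1074, 1220 and 1109 in the reproductive libraries. Those called lower had 1526 and 1649 against 1179, 1182 and 1090. The classes are formed by the call, so these values describe it: in the reproductive libraries their medians were close, and in the juvenile libraries those called lower had the higher median.

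**Figure D4:**
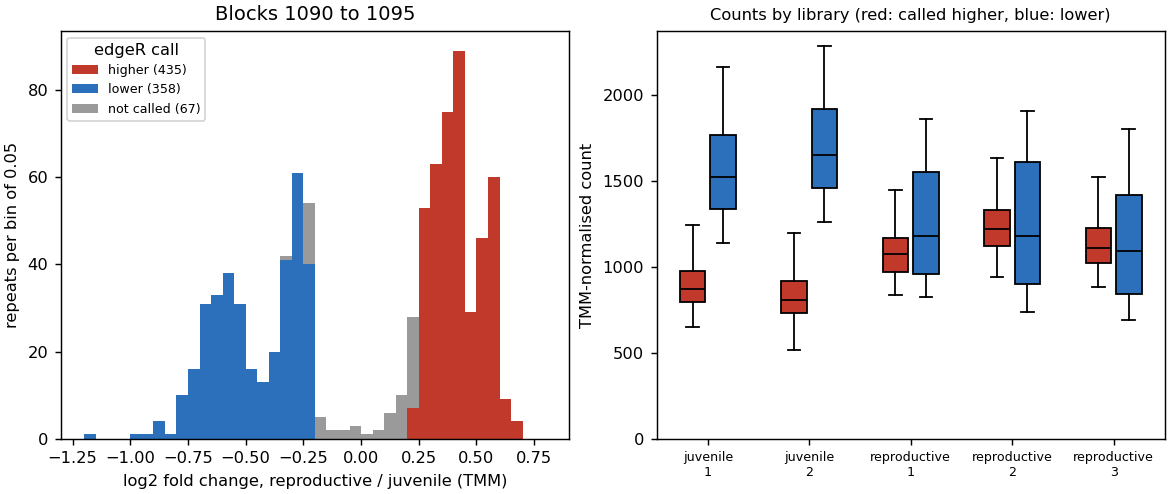
Left, number of repeats (y axis) by log2 fold change under TMM (x axis) in blocks 1090 to 1095, coloured by edgeR call, with few repeats between -0.1 and 0.1. Right, TMM-normalised counts (y axis) by library for repeats called higher (red, n = 435) and lower (blue, n = 358), as medians with quartile boxes and whiskers to 1.5 times the box length, extremes not drawn. The boxes differ in the juvenile libraries (medians 870 and 806 against 1526 and 1649) and overlap in the reproductive ones.

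The classes were interleaved along the numbers. Among 407 pairs with successive numbers in these blocks, 137 (33.7%) were called in opposite directions, 121 both higher and 100 both lower. In the rest of the band 36 of 3353 pairs (1.07%) were called in opposite directions, but there only 340 of 9600 repeats (3.54%) were called higher at all, against 435 of 860 here. Of the 75 runs of 3 or more repeats that start there, 70 contained calls of both directions, out of 119 such runs in the whole band. Under the sums none of the 860 was called lower and 858 were called higher, with median log2 fold changes of 1.52 and 0.66 in the classes. The change of scaling shifts both classes by nearly the same amount. The classes thus differed in size under the sums and in sign under TMM.

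Blocks 973 to 988 showed a milder mixture. Of 1386 repeats, 926 were called lower, 102 higher and 358 not at all under TMM, with a median log2 fold change of -0.33. The 102 called higher each had counts of their own, from 12 of the 16 blocks. Their median raw count was 534 and 412 in the juvenile libraries against 2119, 1721 and 1898 in the reproductive ones. Under the sums 1373 of the 1386 were called higher and 3 lower.

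In 28 repeats, with 26 distinct sets of counts, reproductive library 2 stood apart from the other reproductive libraries. They were found after the values were seen, as repeats in which the normalised count of 1 reproductive library exceeded the median of the 3 by over 1.5 times, which reproductive 1 did in 4 repeats and reproductive 3 in none. Their median normalised count was 5282 and 2849 in the juvenile against 438, 1239 and 445 in the reproductive libraries. Juvenile 1 was above juvenile 2 with a median quotient of 1.86, where the median over all repeats called lower was 0.903. The 28 repeats came from 13 blocks, 17 of them from the stretch 1254 to 1264. All 28 were called lower under each of the 4 scalings, with log2 fold changes from -2.70 to -1.97 under TMM, and in edgeR without reproductive replicate 2 all 28 were called lower with values from -3.44 to -2.32.

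**Figure D5:**
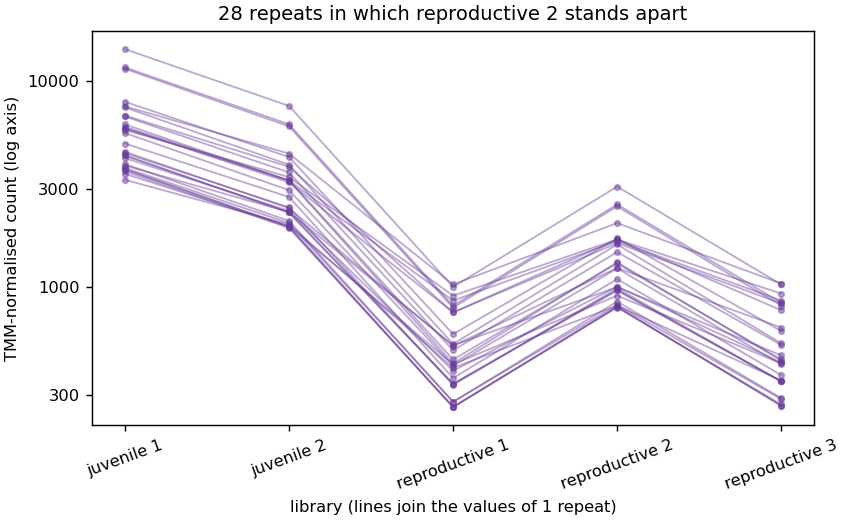
TMM-normalised counts (y axis, log scale) in the 5 libraries (x axis) of the 28 repeats in which reproductive library 2 stands apart, with 1 line per repeat. By the medians, juvenile 1 lies above juvenile 2 (5282 and 2849). Reproductive 2 lies above reproductive 1 and 3 (medians 1239 against 438 and 445), which follows from how the repeats were chosen.

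Less abundant repeats of the same stretches stood higher than those of the band. The median log2 fold change of repeats with a mean count under 1000 was above that of the band in all 22 stretches under TMM. It had the same sign in 16, nearer 0 in 12 of them and further from 0 in 4, and the opposite sign in 6. In block 1135 it was 1.23 against 1.05 for the band, and 855 of 883 such repeats were called higher (96.8%) and 1 lower in edgeR. In blocks 1154 to 1155, 1207 of 1524 (79.2%) were called lower and 6 higher. Block 1273 went the other way, with 420 of 751 called higher and 34 lower at a median of 0.77, where 27 of the 30 repeats of the band were called lower at -0.47. Block 1277 had 341 of 833 called higher and 146 lower at 0.58, against 64 of 68 lower at -0.45 in the band. In blocks 859 to 867, 56.3% were called higher, with a median of 0.84 against 0.03.

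Close to the runs the neighbours were followed as well. Beside and between the 580 runs called lower throughout, up to 5 numbers away, 7236 repeats outside the band were tested. Of these, 4017 (55.5%) were called lower and 338 (4.67%) higher in edgeR under TMM, with a median log2 fold change of -0.45 against -0.97 for the runs themselves. Beside the 7 runs called higher, 58 of 91 such neighbours (63.7%) were called higher and 13 lower, with a median of 0.66. Over all features tested, 24.3% were called lower and 21.1% higher. Over repeats of mean count 100 to under 1000 it was 38.7% and 22.4%. The median mean count of the neighbours was 276 beside the lower runs and 420 beside the higher ones.

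Across the 135 blocks with at least 10 repeats of the band, the median log2 fold change of the band and that of the less abundant repeats of the same block had a Pearson correlation of 0.54 and a Spearman correlation of 0.65. This is a description across blocks, which share the 5 libraries, the scaling and possibly reads. In 130 of the 135 blocks the less abundant repeats had the higher median. The 23 named miRNAs in the same band of counts, with 8 distinct sets of counts, had 9 called higher and 11 lower under TMM and a median of -0.29.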

How the data were processed

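Small RNAs of 2 juvenile and 3 reproductive bud libraries were analysed. The deposited values are whole-number counts of reads per feature without normalization. The submitters' processing notes name Bowtie 1.1.2. Genome build, repeat annotation, length filter and the handling of reads that match in several places: not given in the sources used here. Each column was tied to a sample through the initials and replicate number in its title.

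Features reaching 10 counts in 2 or more libraries were fitted across the whole table with edgeR 4.0.16 in R 4.3.3 (glmQLFit and glmQLFTest, TMM, group as the only term), with Benjamini-Hochberg adjustment over 282619 features. A standard error is the log2 fold change divided by the square root of F. Normalised counts were divided by library factors with a geometric mean of 1. DESeq2 1.42.0, other scalings, filters and replicates left out were alternatives.

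The repeats named in each direction are the one with the largest change among called repeats with separate groups, and the first of the longest run called throughout. The repeats and lists were chosen with earlier results of these data known. Tables were made with pandas 2.3.3 in Python 3.11.15. The read totals are unknown, so counting intervals are left out.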

Additional observations from a re-analysis of the deposited data

How the results depend on the processing

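The direction of the band depended on the scaling. Under the sums of counts 7342 repeats were called higher and 1769 lower in edgeR, with a median log2 fold change of 0.50, and with TMM over the miRNA features 1799 and 4471, with a median of -0.18. All 775 repeats called higher under TMM were also called higher under both of these scalings, and 5208 of the 8326 called lower under TMM were called higher under the sums. Called lower under all 4 scalings were the same 1769 as under the sums. The value of repeat_1076476 turned to 0.043 under the sums. The number of runs called in a single direction was 587, and it was 283 with TMM over the miRNA features, 285 when numbers could differ by up to 20, and 1031 when runs of 2 repeats counted.

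Leaving out each replicate in turn gave 494 to 872 repeats called higher, 7522 to 8432 called lower, medians from -0.69 to -0.55, 495 to 606 runs called in a single direction and a difference in the share of counts of 2.85 to 3.43 percentage points. The lowest count of higher repeats, 494, was without juvenile replicate 2. DESeq2 called 665 higher and 8323 lower. A fit with the replicate number as a block called 565 higher and 7415 lower. Nothing in the labels ties libraries of 1 number together, so the numbers were not taken as pairs. Deviations from the group means correlated at -0.24 for number 1 and -0.10 for number 2. The deviations of 2 juvenile libraries mirror each other, so these values cannot settle the pairing. Leaving out the count minimum, testing copies once, choosing the band by scaled means (9927 repeats, 9837 of them shared) or leaving out the repeats in which 1 reproductive library stands apart moved neither count of calls by over 1.5 times. With 2 juvenile libraries the spread within that group rests on a single difference.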

Other observations

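The 1359 repeats of the band that were called in neither direction under TMM had median normalised counts of 1103 and 1130 (juvenile) and 1080, 1083 and 1053 (reproductive). Blocks 859 to 867 held many of them, with 222 of 278 repeats not called.

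The profile in which reproductive 2 and juvenile 1 stand out was looked for in all features with a mean count of 100 or more, as a quotient over 2.5 of reproductive 2 to each other reproductive library and over 1.5 of juvenile 1 to juvenile 2. It was met by 55 repeats, 18 of them in the band, by 0 of the named miRNAs and by 0 of the candidate miRNAs. Repeats are 429395 of the 430043 features of the table, so the miRNAs searched were few beside them. Their 0 does not show that the profile is confined to repeats.

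Across the 10460 repeats, the log2 fold change and the log2 quotient of juvenile 1 over juvenile 2 had a Pearson correlation of 0.64 and a Spearman correlation of 0.68. This is a description: both measures use the juvenile libraries and the TMM factors, and repeats share reads.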
